A study of Mus musculus with 10 samples.

Results

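The p53 pathway was followed here through 30 listed genes: Trp53, which encodes the transcription factor p53, its inhibitors Mdm2 and Mdm4, and genes that p53 is known to switch on. They were listed by name as the pathway and its known targets, with no threshold on measured values, although earlier results of these data were known when the list was made. All 30 were among the 24520 genes of the deposited table, and 29 were among the 11956 genes that reached 1 RPKM (reads per kilobase of transcript, scaled to the mapped reads of the library) in at least 2 of the 10 libraries. Fas, the death receptor gene, did not reach that level and was not tested.

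RNA was measured in mouse V6.5 embryonic stem cells (ESCs) and in neural progenitor cells (NPCs) derived from them, after transfection of small interfering RNAs (siRNAs). There were 5 groups of 2 libraries: ESCs with control siRNA, ESCs with Cbx3 siRNA, NPCs with control siRNA, NPCs with Cbx3 siRNA and NPCs with Med26 siRNA. The control siRNA was directed against luciferase, so no group was untransfected, and all cells came from one line. Cbx3 encodes the heterochromatin protein HP1 gamma and Med26 a subunit of the Mediator complex, which links transcription factors to RNA polymerase II. ESCs were grown on irradiated mouse embryonic fibroblasts. NPCs came from embryoid bodies of 4 days, dissociated and plated as a monolayer, and the stated schedule of transfection on day 5 and harvest on day 8 describes that monolayer. The labels name no change to Trp53 in any group and no DNA damaging agent given to the ESCs or NPCs. The fibroblasts under the ESCs were irradiated, and the levels of fibroblast markers in the ESC libraries are given below.

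The p53 protein is held at low levels by Mdm2, a ubiquitin ligase that marks it for destruction, and is kept less active by the related protein Mdm4. Stress signals free p53 from both, mostly by changing the protein rather than its RNA, and it then binds DNA as a tetramer and raises genes that stop the cell cycle, start cell death, repair DNA or limit growth. Mdm2 is itself a p53 target and closes a negative feedback loop. Mouse ESCs are known to hold much p53 and to tolerate it while dividing fast.

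The DNA element that p53 binds is a pair of half-sites, each with purines, then C, then A or T in a pair, then G, then pyrimidines, over 10 bases. This half-site is its own reverse complement in form, so a search of 1 strand covers both. Promoter windows of 300 bases, from 250 bases before the start of the RNA to 50 after it, were taken from RefSeq (mouse build GRCm38.p6), and 22 of the 30 members had at least 1 window. A half-site was present in 12 of these 22 members (54.5%), against 8.07% of the 9324 tested genes with a window. A pair of half-sites at most 13 bases apart was present in 1 member, Cdkn1a, and in 0.0644% of the tested genes. The members were listed as p53 targets, so a richer content of such letters is a description of the list. The windows below show the half-sites in capitals, for members whose RNA changed in NPCs and for Trp53 itself, whose RNA was not called changed. Aen and Gtse1 also changed in NPCs and held a half-site, but their windows are not shown. They lay at chr17:29090881-29090962 (plus strand), chr7:45467065-45467124 (minus strand), chr11:40755437-40755496 (minus strand), chr10:117710910-117710969 (minus strand), chr8:22185988-22186047 (minus strand), chr9:36797335-36797369 (minus strand), chr6:67037413-67037472 (minus strand) and chr11:69580259-69580318 (plus strand), and each is written 5′ to 3′ on the strand of its gene.
Cdkn1a: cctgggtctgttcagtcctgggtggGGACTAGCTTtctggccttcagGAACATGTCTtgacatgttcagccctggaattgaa
Bax: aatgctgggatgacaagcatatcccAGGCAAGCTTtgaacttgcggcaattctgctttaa
Ccng1: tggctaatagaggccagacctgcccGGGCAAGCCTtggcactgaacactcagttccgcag
Mdm2: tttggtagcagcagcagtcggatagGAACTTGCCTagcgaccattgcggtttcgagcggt
Ckap2: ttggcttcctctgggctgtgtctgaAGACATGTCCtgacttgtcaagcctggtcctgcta
Ei24: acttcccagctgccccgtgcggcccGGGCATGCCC
Gadd45a: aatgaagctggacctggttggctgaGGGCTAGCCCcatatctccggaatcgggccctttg
Trp53: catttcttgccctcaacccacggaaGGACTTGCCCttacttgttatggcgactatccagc

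Counted from the start site of the window, with bases before it negative, the half-sites of Cdkn1a began at -73 and -51 and that of Ei24 at -10. Bax, Mdm2 and Ckap2 carried theirs farther out, at -201, -186 and -203. Those of Cdkn1a lay in the window shown, and its other window, at a start site farther downstream (chr17:29093519-29093818), held none. The windows of Phlda3, Psrc1 and Mdm4 held none. A match is only a run of letters and its absence says nothing of binding elsewhere, and well-known p53 elements of Mdm2 lie outside these windows. Of the 11 members with a window that fell after Med26 siRNA, 7 held a half-site, as did 4 of the 8 that were not called and 1 of the 2 that rose. Of the 6 with a window that fell after Cbx3 siRNA 4 held one, as did 8 of the 13 that were not called and 0 of the 2 that rose.

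**Figure D1:**
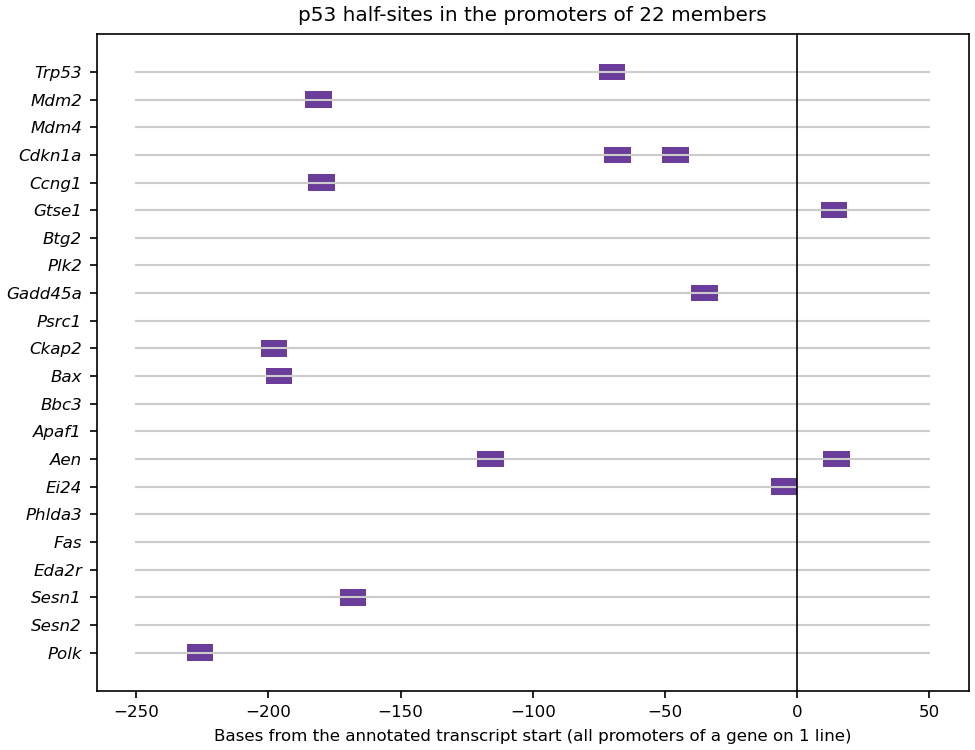
Position of p53 half-sites in the promoter windows of the members, in bases from the start of the RNA (x axis), with all windows of a gene on 1 line. Half-sites were present in 12 of 22 members, and Cdkn1a carried 2 in the same window; the 2 marks of Aen are 1 half-site counted from different start sites.

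The siRNAs lowered their targets in NPCs. Cbx3 RNA was 9.37 and 9.65 RPKM with control siRNA and 0.425 and 0.249 with Cbx3 siRNA, and Med26 RNA was 7.56 and 6.78 with control siRNA and 3.04 and 3.07 with Med26 siRNA (limma with Benjamini-Hochberg adjustment, adjusted p = 0.0001715 and 0.003979). In ESCs, Cbx3 RNA was 13.99 and 56.42 RPKM in the control libraries and 1.007 and 1.958 with Cbx3 siRNA (adjusted p = 0.2911). Replicates correlated across genes at 0.949 in both ESC groups and at 0.995 to 0.996 in the NPC groups. Over the tested members, the median difference between replicates on the log2(RPKM + 1) scale was 0.37 and 0.29 in the ESC groups and 0.0746 to 0.10 in the NPC groups, so ESC comparisons were much less precise. The labels call the replicates biological without saying that they came from separate cultures, so the p-values reflect the spread among these libraries alone, which may be technical.

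Markers of other cells also differed between groups, and their part in the results below was not tested. The summed RPKM of 7 simple epithelium and trophoblast markers was 520 to 534 in NPC control libraries, 820 to 850.1 with Cbx3 siRNA (5 of 7 rose) and 726 to 751 with Med26 siRNA (6 of 7 rose). For 8 pluripotency markers the sum was 809 to 827 with control siRNA, 708 to 710.1 with Cbx3 siRNA (2 fell, 0 rose) and 774 to 792 with Med26 siRNA (1 fell, 3 rose). Most of the NPC control sum was Pou5f1 (484 and 497 RPKM) and Tdgf1 (186 and 186), while Esrrb was 53.4 and 13.7 in ESC controls and 1.18 and 0.913 in NPC controls, and 4 of the 8 pluripotency markers were lower in NPC than in ESC controls. For 10 fibroblast markers the sum was 94.6 to 183 in ESC controls, 52.3 to 60.9 in NPC controls, 85.1 to 92.6 with Cbx3 siRNA in NPCs (3 rose and 1 fell of 8 tested) and 89.3 to 98.6 with Med26 siRNA (1 rose), with Lum below 0.1 RPKM in all groups. Most of that NPC control sum was Thbs1 (37.5 and 34.0 RPKM) and Fn1 (15.8 and 12.5). S100a4 was 27.18 and 34.35 in ESC controls and 1.38 and 1.13 in NPC controls. Of the 8 tested, 5 were lower and 0 higher in NPC than in ESC controls. The sum of 7 neural progenitor markers was 96.6 to 146 in ESC controls, 77.8 to 79.7 in NPC controls, 56.7 to 59.9 with Cbx3 siRNA (4 of 5 tested fell) and 92.8 to 95.3 with Med26 siRNA (1 rose and 1 fell). Of those 5, 2 were higher and 1, Sox2, lower in NPC than in ESC controls: Nes was 6.35 and 15.4 RPKM in ESC controls and 34.9 and 33.5 in NPC controls, and Sox2 131.3 and 72.1 against 29.6 and 29.9. Hes5 and Fabp7 were too low to be tested, at most 0.3525 and 0.3416 RPKM over the 10 libraries and below 0.1 with Med26 siRNA. For 5 muscle markers the sum was 503 to 505 in NPC controls, 586 to 609 with Cbx3 siRNA (2 of 5 rose) and 677 to 740 with Med26 siRNA (3 of 5 rose). For 5 neuron markers it was 80.3 to 92.7 over the NPC libraries, with Dcx below 0.1 RPKM in all groups. Only 2 of these 5 were tested: 1 rose and 1 fell with Cbx3 siRNA, and 0 were called with Med26 siRNA. In such bulk samples, fewer cells of a type and less RNA per cell cannot be told apart.

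Med26 siRNA lowered 12 of the 29 tested members in NPCs and raised 2, without a called change of Trp53 RNA. The 12 were Mdm2, the cell cycle genes Cdkn1a, Gtse1, Psrc1 and Ckap2, the cell death genes Bax, Bbc3, Pmaip1, Phlda3, Aen and Ei24, and the receptor gene Eda2r. The 2 that rose were Mdm4 and Gadd45a. Among all tested genes 6.46% fell and 6.90% rose in this comparison. The median change over the members was -0.28 on the log2(RPKM + 1) scale, against -0.001 over all tested genes, and all log2 changes given here are on that scale, which understates the change of genes with low values. The summed RPKM of the 30 members was 870.8 and 871.9 in the NPC control libraries and 710.3 and 713 with Med26 siRNA. The count of 12 became 3 and 4 without NPC control replicate 1 and 2, and 2 and 3 without Med26 siRNA replicate 1 and 2, and the count of 2 became 0, 1, 0 and 0. Over the 6 fits with 1 library left out, Phlda3 and Psrc1 were called in 6, Cdkn1a in 5, Bax and Gadd45a in 3, Mdm2, Mdm4, Pmaip1, Ei24, Eda2r, Gtse1 and Ckap2 in 2, and Bbc3 and Aen in 0, with no adjusted p above 0.2027 for a called member. With the spread estimated over all 10 libraries, ESCs included, 0 members were called in either direction.

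Cbx3 siRNA in NPCs lowered 7 tested members and raised 3. Those that fell were Mdm2, the cell cycle genes Ccng1, Gtse1 and Psrc1, the cell death genes Trp53inp1 and Ei24, and the stress gene Sesn2, and those that rose were Mdm4, Plk2 and Perp. Among all tested genes 5.33% fell and 7.80% rose. The median change over the members was -0.14, against 0.007 over all tested genes, and the summed RPKM of the members was 758.5 and 785.1. The count of 7 became 3 and 4 without NPC control replicate 1 and 2, and 2 and 3 without Cbx3 siRNA replicate 1 and 2, while the count of 3 became 1, 1, 2 and 0. Trp53inp1 and Psrc1 were called in all 6 fits with 1 library left out, Perp in 4, Mdm2, Mdm4, Ccng1, Sesn2, Gtse1 and Plk2 in 3, and Ei24 in 0, with no adjusted p above 0.1477 for a called member. With the spread estimated over all 10 libraries, 0 members were called. The Cbx3 and Med26 comparisons share the NPC control libraries, so values common to both are given side by side, and the siRNAs are compared with each other directly further on.

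**Figure D2:**
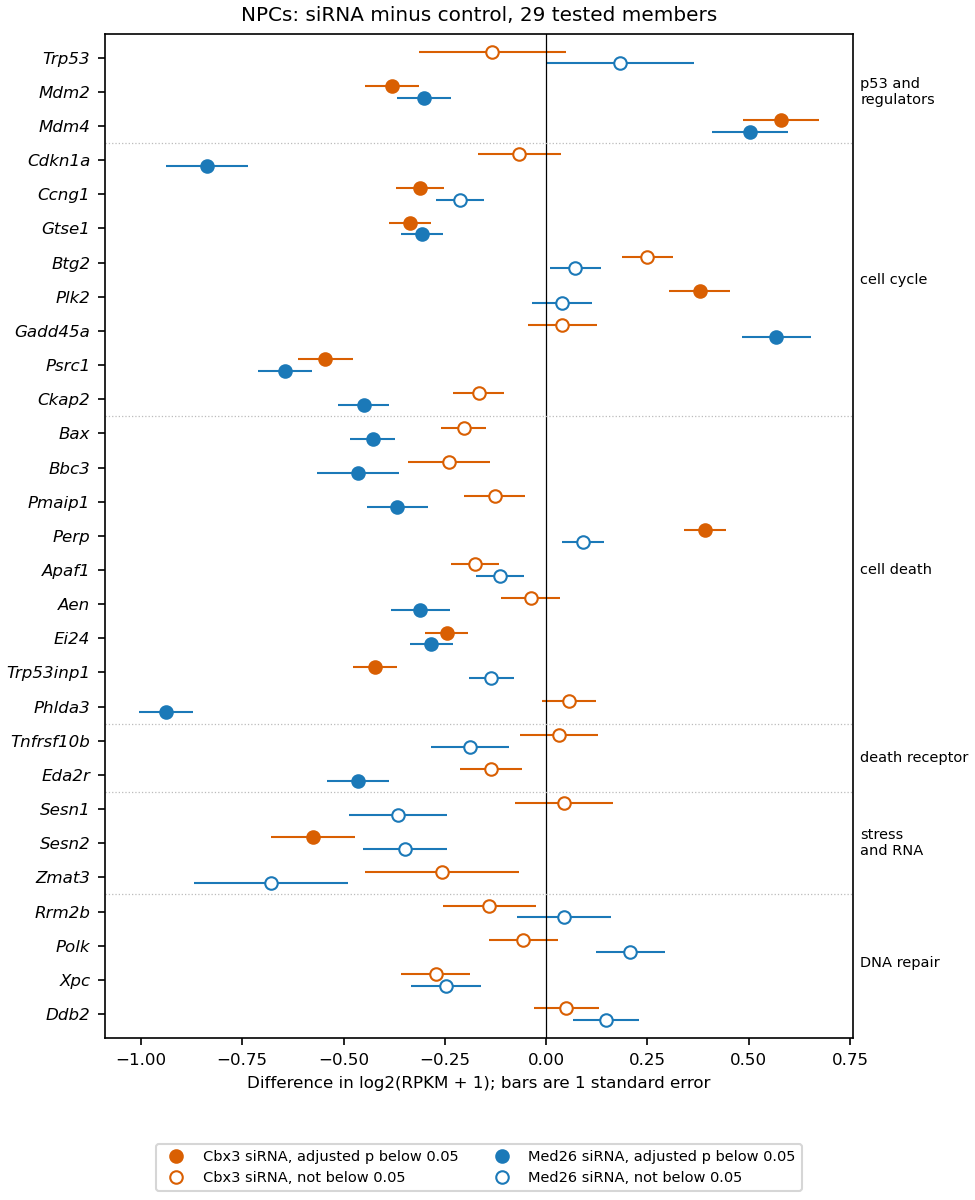
Change of each tested member in NPCs (x axis, log2(RPKM + 1), siRNA minus control; points are estimates, bars 1 standard error, filled points adjusted p below 0.05 with limma). Phlda3 and Cdkn1a lie far to the left with Med26 siRNA (-0.94 and -0.84) and near 0 with Cbx3 siRNA (0.06 and -0.07).

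Trp53 RNA itself was 26.3 and 19.98 RPKM in NPC control libraries, 24.3 and 17.8 with Cbx3 siRNA and 28.5 and 23.9 with Med26 siRNA. The 3 groups overlapped, and the changes were -0.13 (95% confidence interval -0.57 to 0.31) and 0.18 (-0.26 to 0.62), so a moderate change in either direction was not detectable. Replicate 1 lay above replicate 2 in each of these groups. Within each replicate number Trp53 was lowest with Cbx3 siRNA and highest with Med26 siRNA, but the labels do not say what a shared number stands for. These libraries measured RNA, and p53 protein or its modification was not measured. Mdm2 RNA was 37.1 and 39.8 RPKM with control siRNA, 28.1 and 30.6 with Cbx3 siRNA and 31.5 and 30.5 with Med26 siRNA. All 4 knockdown libraries lay below both controls, and Mdm2 fell by 0.38 (SE 0.066, limma adjusted p = 0.01684) and by 0.30 (SE 0.066, adjusted p = 0.03321). Mdm4, the inhibitor that is not a ligase by itself, moved the other way. It was 3.75 and 3.23 RPKM with control siRNA, 5.88 and 5.51 with Cbx3 siRNA and 5.63 and 5.07 with Med26 siRNA, with no overlap between controls and knockdowns. The rise was 0.58 (SE 0.094, adjusted p = 0.01388) with Cbx3 siRNA and 0.50 (SE 0.094, adjusted p = 0.02298) with Med26 siRNA. Trp53 and Mdm4 have pseudogene copies in the mouse genome whose reads the authors' counting could have shared with them, so their levels carry that uncertainty.

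Of the 8 members that act on the cell cycle, Cdkn1a differed most between the siRNAs. Cdkn1a encodes p21, the inhibitor of cyclin-dependent kinases through which p53 halts division. It was 17.5 and 14.1 RPKM with control siRNA, 15.5 and 14.5 with Cbx3 siRNA and 8.29 and 8.43 with Med26 siRNA. The Cbx3 siRNA libraries lay within the control range and the Med26 siRNA libraries well below it, at 0.529 times the control mean. With Med26 siRNA it fell by 0.84 (SE 0.102, limma adjusted p = 0.00746; adjusted p = 0.05863 without Med26 siRNA replicate 1), and with Cbx3 siRNA the change was -0.07 (95% confidence interval -0.31 to 0.18, adjusted p = 0.7153).

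Psrc1, which encodes a protein of the mitotic spindle, fell with both siRNAs. It was 58.1 and 58.9 RPKM with control siRNA, 38.0 and 41.6 with Cbx3 siRNA and 35.6 and 38.5 with Med26 siRNA. Every knockdown library lay below both controls, with a fall by 0.55 (SE 0.067, limma adjusted p = 0.006137) and by 0.65 (SE 0.067, adjusted p = 0.004862), and the call held with each of the 6 NPC libraries left out. Gtse1, which encodes a microtubule protein that also restrains p53, was 64.1 and 60.4 RPKM with control siRNA, 48.97 and 49.2 with Cbx3 siRNA and 50.6 and 49.6 with Med26 siRNA. It fell by 0.34 (adjusted p = 0.01205) and by 0.31 (adjusted p = 0.01793), again with no overlap. Ccng1, the cyclin G1 gene, was 97.5 and 106.8 RPKM with control siRNA, 80.97 and 83.1 with Cbx3 siRNA and 88.6 and 87.2 with Med26 siRNA. It fell by 0.31 with Cbx3 siRNA (adjusted p = 0.02231), and with Med26 siRNA the change was -0.21 (adjusted p = 0.06384). For Ckap2, a further spindle gene, the order was the other way round: it was 45.0 and 47.4 RPKM with control siRNA, 39.2 and 42.98 with Cbx3 siRNA and 33.6 and 33.5 with Med26 siRNA. Ckap2 fell by 0.45 with Med26 siRNA (adjusted p = 0.01044) and was not called with Cbx3 siRNA (-0.17, adjusted p = 0.1344).

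A pair of cell cycle members rose, each with 1 siRNA. Gadd45a, a growth arrest gene that also responds to stress without p53, was 24.9 and 28.1 RPKM with control siRNA, 28.0 and 26.5 with Cbx3 siRNA and 37.4 and 42.3 with Med26 siRNA. Only the Med26 siRNA libraries of these 6 lay above the rest, and the rise was 0.57 (SE 0.086, limma adjusted p = 0.01318). Plk2, which encodes a polo-like kinase, was 31.4 and 34.4 RPKM with control siRNA, 40.7 and 45.5 with Cbx3 siRNA and 33.2 and 34.4 with Med26 siRNA. It rose by 0.38 with Cbx3 siRNA (SE 0.075, adjusted p = 0.0245), and the change with Med26 siRNA was 0.04 (adjusted p = 0.7684). Btg2, which restrains proliferation, was 16.9 and 16.6 RPKM with control siRNA and 19.7 and 20.5 with Cbx3 siRNA, which missed the threshold (0.25, adjusted p = 0.05053).

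**Figure D3:**
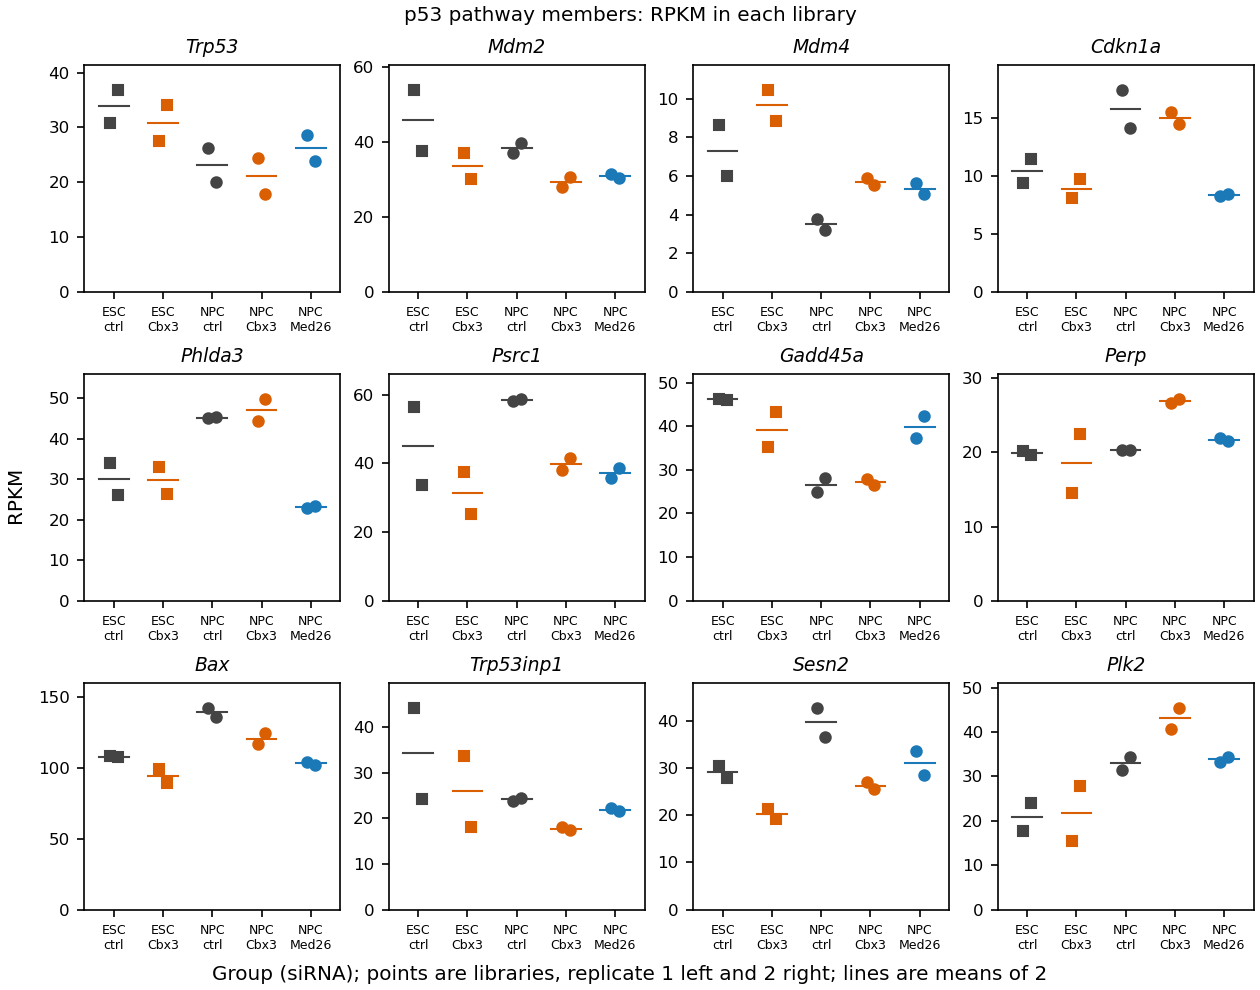
RPKM in each of the 10 libraries (y axis, linear and starting at 0) for 12 members, by group (x axis); points are libraries and lines are means of 2. Cdkn1a, Phlda3 and Bax are lowest among NPCs with Med26 siRNA, Psrc1 and Mdm2 are low with both siRNAs, and Trp53 overlaps between the NPC groups.

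Among the 9 members that act in cell death, 6 fell and 0 rose with Med26 siRNA, against 6.46% and 6.90% of all tested genes. With Cbx3 siRNA 2 fell and 1 rose, against 5.33% and 7.80%. Phlda3, which encodes a small lipid-binding protein that blocks the survival kinase Akt, had the largest called change among the members with Med26 siRNA. It was 45.1 and 45.4 RPKM with control siRNA, 44.4 and 49.98 with Cbx3 siRNA and 22.95 and 23.4 with Med26 siRNA. The Med26 siRNA libraries lay at 0.511 times the control mean, with a fall by 0.94 (SE 0.067, limma adjusted p = 0.001832) that was called with each of the 6 libraries left out. With Cbx3 siRNA the change was 0.06 (95% confidence interval -0.11 to 0.22, adjusted p = 0.6359).

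The members that open mitochondria in apoptosis moved in smaller steps. Bax, the pore-forming protein gene, was 142 and 136 RPKM with control siRNA, 117 and 124 with Cbx3 siRNA and 104 and 102 with Med26 siRNA. All knockdown libraries were below the controls, but Bax passed the test only with Med26 siRNA, where it fell by 0.43 (SE 0.056, limma adjusted p = 0.008483), and not with Cbx3 siRNA (-0.20, adjusted p = 0.06197). Bbc3 encodes PUMA and Pmaip1 NOXA, both of which free Bax from its inhibitors. Bbc3 was 21.1 and 18.3 RPKM with control siRNA, 16.1 and 16.8 with Cbx3 siRNA and 12.8 and 15.2 with Med26 siRNA. Pmaip1 was 36.9 and 41.8 RPKM with control siRNA, 34.6 and 37.2 with Cbx3 siRNA and 29.7 and 30.7 with Med26 siRNA. Both fell with Med26 siRNA, by 0.46 (adjusted p = 0.03324) and 0.37 (adjusted p = 0.02766), though the call of Bbc3 was lost with any 1 of the 6 libraries left out. Apaf1, which builds the caspase-activating complex, stayed between 10.9 and 12.6 RPKM in the 6 NPC libraries and was not called.

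Of the remaining cell death members, Aen and Ei24 were lower with Med26 siRNA by small margins. Aen, an apoptosis-linked nuclease gene, was 34.6 and 37.2 RPKM with control siRNA, 33.4 and 36.4 with Cbx3 siRNA and 27.5 and 29.9 with Med26 siRNA, and fell by 0.31 with Med26 siRNA (limma adjusted p = 0.04096). Ei24, which encodes a membrane protein of the endoplasmic reticulum, was 25.01 and 24.34 RPKM with control siRNA, 20.4 and 20.9 with Cbx3 siRNA and 20.1 and 20.1 with Med26 siRNA. It fell with both siRNAs, by 0.25 (adjusted p = 0.03131) and 0.28 (adjusted p = 0.0227). The calls of Aen with Med26 siRNA and of Ei24 with Cbx3 siRNA were lost with any 1 of the 6 libraries left out.

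Trp53inp1 and Perp were set apart by Cbx3 siRNA. Trp53inp1, whose product helps p53 and autophagy under stress, was 23.9 and 24.4 RPKM with control siRNA, 18.1 and 17.4 with Cbx3 siRNA and 22.2 and 21.6 with Med26 siRNA. It fell by 0.42 with Cbx3 siRNA (SE 0.055, limma adjusted p = 0.007269), a call that held with each of the 6 libraries left out, and was not called with Med26 siRNA (-0.14, adjusted p = 0.1544). Perp encodes a membrane protein of cell junctions in epithelia as well as a p53 effector of cell death. It was 20.3 and 20.3 RPKM with control siRNA, 26.6 and 27.3 with Cbx3 siRNA and 21.9 and 21.5 with Med26 siRNA. The rise by Cbx3 siRNA was 0.39 (SE 0.052, adjusted p = 0.007903). The sum of the epithelial markers was highest in these libraries (820 to 850.1 RPKM). That sum was also above the controls with Med26 siRNA (726 to 751 against 520 to 534), where Perp changed by 0.09 (adjusted p = 0.2929). The part of epithelial cells in the rise of Perp was not tested.

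Of the 2 tested death receptor genes, 1 fell with Med26 siRNA and 0 were called with Cbx3 siRNA (0 at an unadjusted p under 0.05). Eda2r, the receptor gene for a form of ectodysplasin, was 13 and 14.2 RPKM with control siRNA, 12.0 and 12.5 with Cbx3 siRNA and 10.01 and 9.15 with Med26 siRNA, and fell by 0.47 with Med26 siRNA (limma adjusted p = 0.01646). Tnfrsf10b, the mouse TRAIL receptor gene, lay between 5.03 and 6.77 RPKM in the 6 NPC libraries and was not called. Fas lay between 0.144 and 0.578 RPKM in all 10 libraries.

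The sestrins Sesn1 and Sesn2 restrain the growth kinase mTORC1 under stress, and Zmat3 encodes an RNA-binding protein. Sesn2 was 42.9 and 36.6 RPKM with control siRNA, 27.0 and 25.6 with Cbx3 siRNA and 33.6 and 28.5 with Med26 siRNA. All knockdown libraries lay below the controls, and Sesn2 fell by 0.57 with Cbx3 siRNA (SE 0.104, limma adjusted p = 0.01944), while with Med26 siRNA the change was -0.35 (adjusted p = 0.07531). Zmat3 was 6.99 and 5.24 RPKM with control siRNA, 5.54 and 4.34 with Cbx3 siRNA and 4.12 and 2.80 with Med26 siRNA. Its change of -0.68 with Med26 siRNA was large for a member but its replicates were far apart (SE 0.19, adjusted p = 0.06438). Sesn1 was 3.51 and 4.19 RPKM with control siRNA, 3.53 and 4.48 with Cbx3 siRNA and 2.66 and 2.85 with Med26 siRNA, and was not called.

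The 4 DNA repair members showed no called change with either siRNA. Xpc and Ddb2 recognise ultraviolet lesions, Polk copies past damaged bases and Rrm2b supplies nucleotides. Xpc was the highest of them, at 7.87 and 8.504 RPKM with control siRNA, 6.20 and 7.02 with Cbx3 siRNA and 6.53 and 6.93 with Med26 siRNA, with changes of -0.27 (limma adjusted p = 0.08846) and -0.25 (adjusted p = 0.1069). Ddb2 lay between 3.41 and 4.12 RPKM and Polk between 2.01 and 2.79 RPKM in the 6 NPC libraries. Rrm2b lay between 0.534 and 0.998 RPKM there, too low for a small change to be measured well.

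Comparing the siRNAs with each other, without the control libraries in the difference, asks which members separate them. In NPCs with Cbx3 siRNA 8 members were higher than with Med26 siRNA, namely Cdkn1a, Bax, Phlda3, Perp, Aen, Eda2r, Plk2 and Ckap2, and 2 were lower, Trp53inp1 and Gadd45a. Among all tested genes 10.4% were higher and 7.87% lower. Phlda3 (0.99, SE 0.067, limma adjusted p = 0.001115) and Cdkn1a (0.77, SE 0.102, adjusted p = 0.006485) differed most, and both calls held with each of the 6 libraries left out. With 1 library left out, Gadd45a was called in 4 of 6 fits, Plk2 and Ckap2 in 3, Trp53inp1, Perp and Eda2r in 2, and Bax and Aen in 0. Gadd45a was -0.53 (SE 0.086, adjusted p = 0.01121) and Trp53inp1 -0.29 (SE 0.055, adjusted p = 0.01793). No difference was called for Mdm2 (-0.08, 95% confidence interval -0.24 to 0.08), Mdm4 (0.08, -0.15 to 0.30), Psrc1 (0.10, adjusted p = 0.339), Gtse1 (-0.03, adjusted p = 0.7335) or Ei24 (0.04, adjusted p = 0.6532), which does not show that the siRNAs act alike on them. The count of 8 became 4 and 2 without Cbx3 siRNA replicate 1 and 2 and 2 and 2 without Med26 siRNA replicate 1 and 2, and the count of 2 became 1, 0, 1 and 0. With the spread estimated over all 10 libraries 1 member, Phlda3, was called.

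The change from ESCs to NPCs under control siRNA went with higher RNA of several cell death members. In NPC control libraries 7 members were higher than in ESC control libraries and 2 were lower, against 10.1% and 5.94% of all tested genes. Those higher were Pmaip1, Bax, Phlda3, Aen and Apaf1 of the cell death genes, and Cdkn1a and Btg2 of the cell cycle genes. Pmaip1 was 25.8 and 24.1 RPKM in ESCs and 36.9 and 41.8 in NPCs (0.64, SE 0.106, limma adjusted p = 0.009603), and Btg2 was 11.99 and 8.41 against 16.9 and 16.6 (0.68, SE 0.151, adjusted p = 0.02462). Apaf1 was 9.50 and 8.45 RPKM in ESCs and 12.5 and 12.6 in NPCs (0.44, adjusted p = 0.02841). Cdkn1a was 9.40 and 11.5 RPKM in ESCs against the NPC values given above (0.55, SE 0.143, adjusted p = 0.03925), and Phlda3 34.1 and 26.1 (0.59, SE 0.154, adjusted p = 0.04052). Bax was 108 and 107 RPKM in ESCs (0.36, adjusted p = 0.04237) and Aen 24 and 27.2 (0.47, adjusted p = 0.02619). For each of the 7 members the NPC libraries lay above both ESC libraries. Marker sums also differed between these groups. The muscle markers summed to 85.5 to 190.5 RPKM in ESCs and 503 to 505 in NPCs (4 of 5 higher, 1 lower), and the epithelial markers to 219 to 358 and 520 to 534 (0 of 7 called, 7 estimates above 0). Of the fibroblast markers 5 of 8 tested were lower in NPCs, as were 4 of 8 pluripotency markers, and the part of these cells in the members' differences was not tested.

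The 2 members lower in NPCs were Gadd45a and Mdm4. Gadd45a was 46.4 and 45.9 RPKM in ESCs and 24.9 and 28.1 in NPCs (-0.78, SE 0.125, limma adjusted p = 0.008519), and Mdm4 was 8.63 and 5.98 against 3.75 and 3.23 (-0.87, SE 0.165, adjusted p = 0.01475). Trp53 was 30.8 and 36.9 RPKM in ESCs, above both NPC controls, but the difference was not called (-0.54, adjusted p = 0.1107). This comparison also uses the NPC control libraries, so it is not independent of the knockdown comparisons. Side by side, the NPC libraries with Med26 siRNA held 8.29 and 8.43 RPKM of Cdkn1a and 37.4 and 42.3 of Gadd45a. The ESC control libraries held 9.40 and 11.5 of Cdkn1a and 46.4 and 45.9 of Gadd45a. Of the other members called, Btg2 had means of 10.2 in ESC controls, 16.71 in NPC controls and 17.62 with Med26 siRNA. In that order Apaf1 had 8.973, 12.56 and 11.52, Pmaip1 24.91, 39.36 and 30.23, and Aen 25.6, 35.87 and 28.72. Mdm4 had 7.306, 3.488 and 5.351, Bax 107.6, 138.9 and 103, and Phlda3 30.06, 45.28 and 23.15. With 1 of the 10 libraries left out, Mdm4, Gadd45a and Pmaip1 were called in 8 fits, Btg2 in 4, Cdkn1a, Phlda3, Aen and Apaf1 in 3 and Bax in 2. The count of 7 was 4 without either ESC control replicate, 0 without either NPC control replicate and 1 without any 1 of the NPC knockdown libraries, and the count of 2 was 0 without either NPC control replicate. In a fit of the 4 control libraries alone, 0 members were called.

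In ESCs, Cbx3 siRNA gave no called change of any member, nor of any other gene tested (0% higher and 0% lower, limma). At an unadjusted p under 0.05, 0 members were higher and 2 lower, against 218 and 427 of all genes. The 2 were Sesn2, at 30.5 and 27.9 RPKM with control siRNA and 21.3 and 19.2 with Cbx3 siRNA (-0.51, SE 0.123, adjusted p = 0.5493), and Mdm2, at 54.0 and 37.7 against 37.1 and 29.98 (-0.43, SE 0.174, adjusted p = 0.8815). The groups lay apart for Sesn2, while for Mdm2 the nearest values of the groups, 37.7 and 37.1, almost met. Psrc1 was 56.5 and 33.8 RPKM with control siRNA and 37.4 and 25.2 with Cbx3 siRNA, where replicate 1 was far above replicate 2 in both groups. Trp53inp1 (44.3 and 24.2 against 33.7 and 18.2 RPKM) showed the same split between replicates. With replicate number as a block, 1 member was called higher (Mdm4) and 6 lower (Mdm2, Trp53inp1, Psrc1, Sesn2, Zmat3 and Gtse1). The labels do not say what a shared number stands for. The share of all tested genes called with this block was not counted, so these calls cannot be set against all genes. Of the 29 members 6 had estimates above 0 and 23 below, against 5160 and 6795 of all tested genes, and the median was -0.13 against -0.026.

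**Figure D4:**
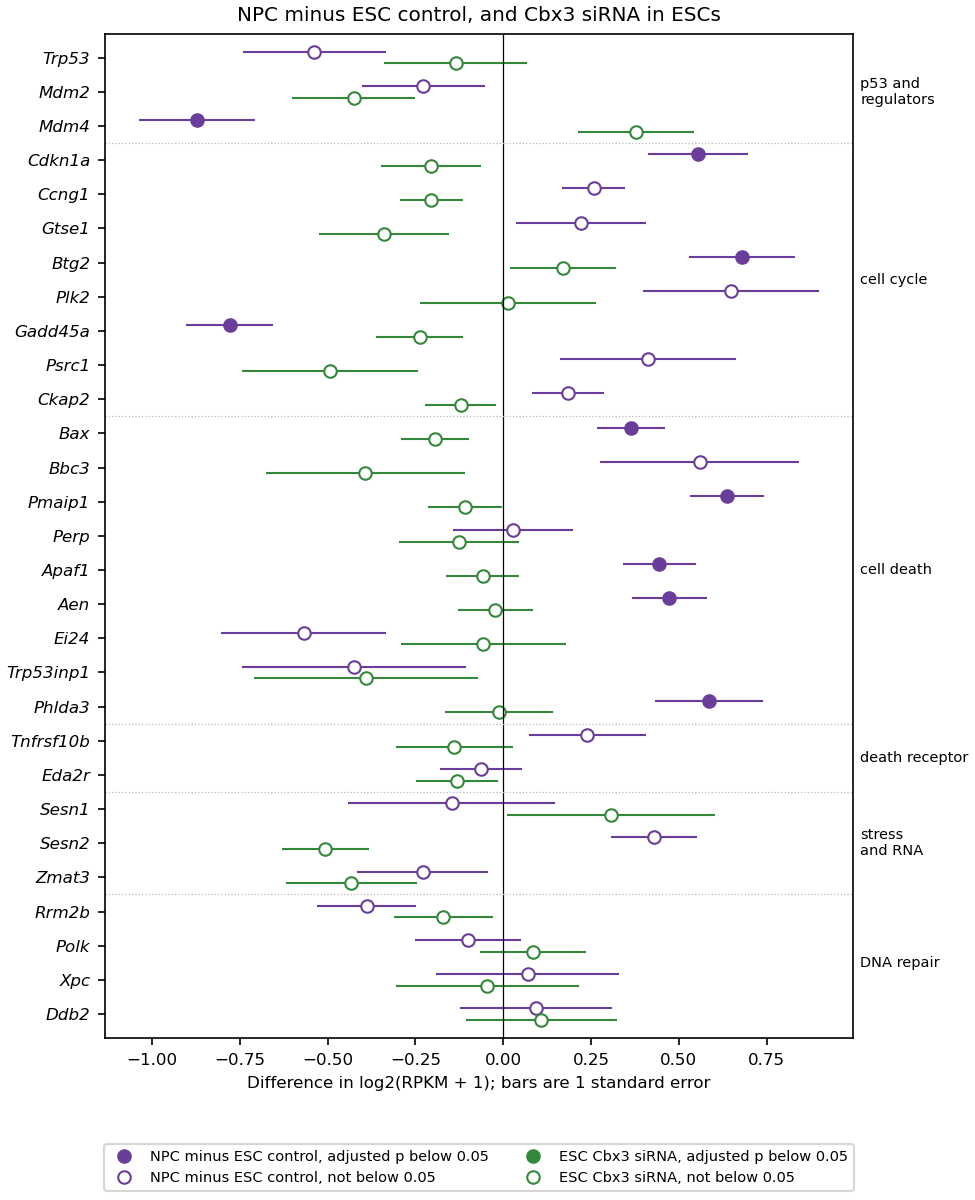
Change of each tested member with Cbx3 siRNA in ESCs and between NPC and ESC control libraries (x axis, log2(RPKM + 1); points are estimates, bars 1 standard error, filled points adjusted p below 0.05 with limma). No member is filled for Cbx3 siRNA in ESCs, and 9 are filled between the cell types.

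Whether the members answered Cbx3 siRNA differently in NPCs and ESCs was tested as an interaction, and 0 members and 0% of all genes were called in either direction (limma). At an unadjusted p under 0.05 these were 0 members, and 173 genes higher and 60 lower. The intervals were wide: the difference between cell types was 0.52 for Perp (95% confidence interval -0.05 to 1.08), 0.05 for Mdm2 (-0.53 to 0.62) and -0.05 for Psrc1 (-0.88 to 0.78). For Sesn2 it was -0.07 (-0.47 to 0.34) and for Mdm4 0.20 (-0.34 to 0.75). The p53 members that changed with Cbx3 siRNA in NPCs were thus not shown to differ in their response from ESCs, nor to respond alike.

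Beyond the members, 4 lists of related genes were examined. Among all tested genes 7.80% rose and 5.33% fell with Cbx3 siRNA in NPCs, and 6.90% rose and 6.46% fell with Med26 siRNA. Of 35 tested further p53 targets, 5 rose and 5 fell with Cbx3 siRNA (median -0.034) and 4 rose and 6 fell with Med26 siRNA (median -0.16). Igfbp3, a growth factor binding protein gene, rose from 51.1 ± 0.452 to 121 ± 0.213 RPKM (SD, n = 2) with Cbx3 siRNA (1.23, limma adjusted p = 0.0001749) and by 0.21 with Med26 siRNA (adjusted p = 0.03511). Dcxr, a sugar reductase gene, fell by 0.87 (adjusted p = 0.003187) and by 0.74 (adjusted p = 0.006064). Slc19a2, the thiamine transporter gene, fell by 0.86 with Cbx3 siRNA (adjusted p = 0.001347), and its change with Med26 siRNA was -0.22 (adjusted p = 0.06117). Igfbp3 is known to answer other signals as well as p53.

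Among 25 tested modifiers and relatives of p53, 0 rose and 1 fell with Cbx3 siRNA (limma; 0 and 6 at an unadjusted p under 0.05). That one was Usp7, which encodes the protease that removes ubiquitin from Mdm2 and p53 and went from 81.4 ± 3.78 to 64.4 ± 0.92 RPKM (SD, n = 2; -0.33, adjusted p = 0.01327). With Med26 siRNA 1 rose, Sirt1, a deacetylase of p53 (0.53, adjusted p = 0.004934), and 4 fell, Kat5 (-0.53), Smyd2 (-0.43), Trp73 (-0.41) and Ppm1d (-0.33), all named after their values were seen. Ppm1d, a phosphatase gene, is itself a p53 target.

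Of 16 DNA damage kinases and mediators, Hus1, part of a damage sensing clamp, rose (0.40, limma adjusted p = 0.03261) and Trp53bp1, a mediator at DNA breaks, fell (-0.30, adjusted p = 0.02928) with Cbx3 siRNA. With Med26 siRNA Hus1 was the 1 gene called (0.53, adjusted p = 0.01646). Of 34 cell cycle genes under the DREAM complex and E2F, which p21 represses through the retinoblastoma family, 1 rose and 0 fell with Cbx3 siRNA (4 and 3 at an unadjusted p under 0.05). Mybl2, a transcription factor of this group, rose by 0.24 (adjusted p = 0.0466). With Med26 siRNA, where Cdkn1a was low, Mybl2 rose by 0.28 (adjusted p = 0.02781), and Plk1 (-0.39), Mcm2 (-0.23) and Birc5 (-0.21), named after their values were seen, fell. The summed RPKM of the 34 genes was 2076 to 2154 with control siRNA, 2058 to 2144 with Cbx3 siRNA and 1940 to 2018 with Med26 siRNA.

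**Figure D5:**
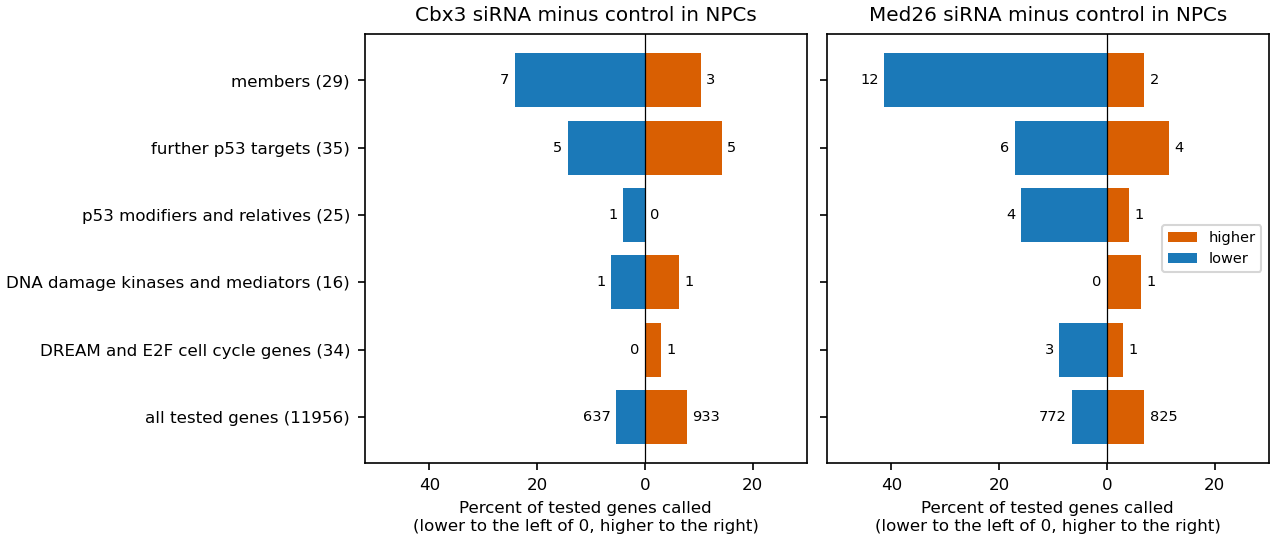
Percent of tested genes called lower (left of 0) and higher (right of 0) in NPCs for the members, the 4 related lists and all tested genes (limma, adjusted p below 0.05), with the number of genes in each bar beside it. With Med26 siRNA 12 of 29 members were lower against 772 of 11956 genes (6.46%). Of the further p53 targets 6 of 35 were lower, and the remaining lists had 0 to 4 genes lower. Called in either direction were 48.3% of the members, 28.6% of the further p53 targets and 13.4% of all tested genes.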

How the data were processed

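RNA was sequenced from 10 libraries, 2 in each of 5 groups, taken from the sample labels. The authors deposited RPKM values per transcript; the submitters' processing notes list TopHat2 (2.08) and mm9, a mouse genome build, without their settings. The counting tool, annotation and use of strand were not given in the sources used here. Accessions were given gene symbols from RefSeq tables (99.07% of 35860 rows, 334 without one), and the row with the highest mean RPKM stood for each gene. Low values stepped in a way that puts depth at 23200000 to 63700000 reads per library, but only 68.8% to 74.0% of them lay within 0.1 of a whole read, so counts were not recovered and no count test was run. Tests used limma 3.58.1 in R 4.3.3 on log2(RPKM + 1) with an intensity trend, for 11956 genes at 1 RPKM or more in 2 or more libraries, with Benjamini-Hochberg adjustment over all of them and a threshold of 0.05. NPC comparisons were fitted on the 6 NPC libraries (3 residual degrees of freedom) and the others on all 10 (5 residual degrees of freedom). The tests were also run on simulated data in which each library varied on its own. The shared deviation of libraries with one replicate number was not simulated, and no outcome is given here. All 30 members are reported; other genes are named where called with Cbx3 siRNA in NPCs, up to 4 per list by size of change, or where the text says so. One gene that this rule names is not reported here. The members and lists were chosen with earlier results of these data known. The alternatives tried were another pseudocount, no filter on low values, upper quartile scaling, summed rows, no intensity trend, a replicate block, other sets of libraries in the fit, and each library left out. Sequences come from RefSeq (GRCm38.p6), whose coordinates were not mixed with mm9.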

Additional observations from a re-analysis of the deposited data

How the results depend on the processing

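No member changed direction under any alternative run where it was called. Counts of members called are given as higher and lower. Without the filter on low values, which raised the number of genes tested, they were 1 and 4 for Cbx3 siRNA in NPCs, 0 and 7 for Med26 siRNA, and 3 and 1 for Cbx3 against Med26 siRNA. With all 10 libraries in the fit they were 0 and 0, 0 and 0, and 1 and 0. For NPC against ESC controls, a fit of the 4 control libraries gave 0 and 0. A replicate block gave 12 lower for Cbx3 siRNA in NPCs and 13 and 4 for Cbx3 against Med26 siRNA. It gave 1 and 6 for Cbx3 siRNA in ESCs and 15 and 8 for NPC against ESC controls. Compared with the main fit, it called 6 further members for Cbx3 siRNA in NPCs and 5 further members for Med26 siRNA. The share of all tested genes called was not counted under the alternatives, so these counts cannot be set against all genes. The labels do not say that a replicate number marks a shared culture or day, so the block was not used in the main results, but libraries of one number deviated together within each cell type: the difference of replicate 2 from replicate 1 correlated across genes at 0.892 between the ESC groups, 0.423 to 0.461 among NPC groups and -0.069 to -0.038 between them. With 1 library left out, the counts ranged from 0 to 3 and 2 to 6 (Cbx3 siRNA in NPCs), 0 to 2 and 2 to 10 (Med26 siRNA), 2 to 6 and 0 to 2 (Cbx3 against Med26 siRNA), and 0 to 9 and 0 to 3 (NPC against ESC controls), where a lone library was assumed to vary like the other groups. Another pseudocount, the sum of all rows, upper quartile scaling and no intensity trend kept every count within 1.5 times. The cause of these shifts was not tested. With 2 libraries a group, small changes of members near 1 RPKM, such as Rrm2b, could not be measured.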
